A study of Mus musculus with 2 samples.

Results

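The 10 genes described here encode apolipoproteins and the proteins that assemble very low density lipoprotein (VLDL). They were measured in mouse liver among 18194 genes with their own probe sets on an Affymetrix array. The members were Apoa1, Apoa2, Apoa4, Apob, Apoc1, Apoe, Apoh, Apom, Mttp and Tm6sf2, taken as every probe set annotated with exactly 1 symbol from this set. This gave 18 probe sets of 45101, and 0 further probe sets carried a member's symbol together with another gene's. A probe set is a group of short array probes that read 1 transcript or a group of related ones.

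The study asked how dietary diosgenin, a steroidal sapogenin of plants such as yam and fenugreek, affects the liver transcriptome. The diosgenin group were ICR mice, an outbred stock, fed the basal diet CRF-1 with 500 ppm diosgenin for 4 weeks from the age of 9 weeks. The control group were ICR mice of the same age on CRF-1 alone, and both groups were 13 weeks old when liver was taken. Liver RNA of 3 mice was pooled for each diet and hybridised to 1 array per diet, so the comparison is of 1 pool with 1 pool. There was no replicate array, no test was possible, and the spread between mice cannot be had from a pool. "Higher" and "lower" below are of the diosgenin array against the control array, and state no effect beyond these 2 pools. Mice were housed 3 to a cage, and if a diet was a single cage, cage and diet cannot be told apart.

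Apolipoproteins are the protein part of lipoproteins, the particles that carry cholesterol, triglyceride and phospholipid in blood. Liver secretes VLDL, which is built on apolipoprotein B in the endoplasmic reticulum (ER) while the microsomal triglyceride transfer protein loads lipid onto it, and it supplies most of the proteins of high density lipoprotein (HDL). Smaller apolipoproteins move between particles, where they activate or inhibit lipases and serve as ligands for receptors.

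Signals were on a linear scale, and both arrays had a 2% trimmed mean of 96.9, as a common scaling by the authors would give. A floor of 10.7 was set under low signals, and genes whose brightest probe set had a mean signal of at least 28.4 were kept, which left 9732 genes and 18041 probe sets. All 18 member probe sets passed this filter, with both signals above the floor. The spread of log2 ratios (log2 of diosgenin over control) widened at low signal, so the kept genes were split by mean signal into 4 classes of equal size, and each probe set is set beside those of its class. Within a gene that has several probe sets, their log2 ratios varied with a standard deviation (SD) of 0.28 over 4079 genes, which contains no spread between mice. Of the hepatocyte markers 6 of 6 measured passed the filter, with summed signals of 49558 on the diosgenin array and 50973 on the control array.

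The array signals of most member genes differed little between the pools. By the brightest probe set of each gene, 3 of 10 member genes were higher and 7 lower on the diosgenin array, with a median log2 ratio of −0.066 and a mean of 0.0017, which differ in sign. With quantile normalization 4 were higher and 5 lower, with Apoc1 at 0, and 4 were higher and 6 lower by the median over a gene's probe sets. Over all 9732 genes 51.0% were lower and the median was −0.0053. A single member gene, Tm6sf2, exceeded 1.5-fold upward and 0 did so downward. Over all genes 2.84% passed that threshold upward and 3.61% downward, together 6.44%, and 1 of 10 is near that background. By signal class the share differed. It was 6.25% in the class of Tm6sf2, and 2.26% in the brightest class, which holds the other member genes. By probe set, 1 of 18 passed it upward and 1 downward, with 3.39% and 4.17% of all probe sets in these directions and 7.56% in either. No member probe set reached 2-fold, which 1.51% of all probe sets did. In pooled whole liver, fewer cells of a type and less RNA per cell cannot be told apart.

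**Figure D1:**
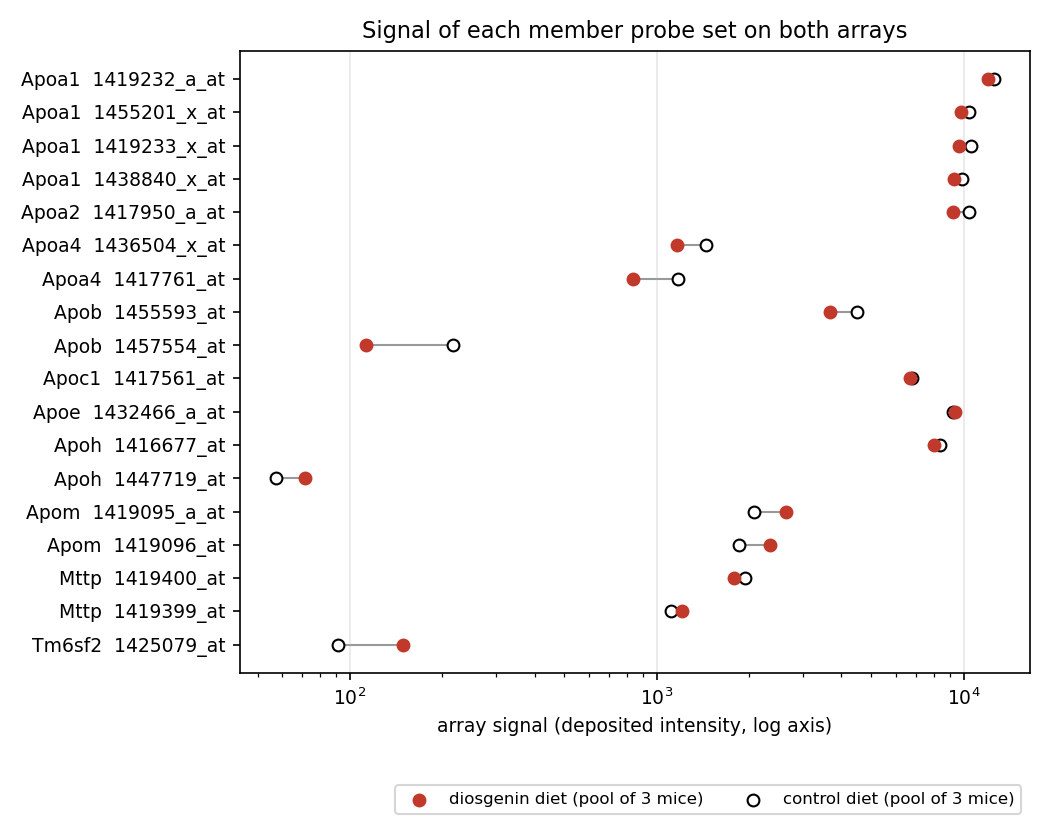
Deposited array signal (log axis) of the 18 member probe sets on the diosgenin array (filled) and the control array (open), each 1 pool of 3 mice without replicates. The widest gaps are those of Apob 1457554_at, at 113 (diosgenin) against 216 (control), and Tm6sf2, at 149 (diosgenin) against 91.3 (control).

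Several members lie at the bright end of the arrays, and the share of lower values depended on how bright a set was taken. Of the 18 member probe sets, 8 were among the 100 brightest of the array, and all of these but that of Apoe were lower on the diosgenin array. Of the other 92, 67 were lower, and the median log2 ratio of the 92 was −0.052. The hepatocyte markers Alb, Ttr and Fgb, which encode albumin, transthyretin and the fibrinogen beta chain, had log2 ratios of −0.18, −0.12 and −0.074, while Cyp2e1, Ahsg and Cps1 (a cytochrome P450, fetuin-A and the first urea cycle enzyme) had 0.0036, 0.076 and 0.14. Among the 500 brightest probe sets, 295 of the 491 that were no members were lower, with a median of −0.023. In the brightest class of genes 50.5% were lower, with a median of −0.0030. These set sizes were chosen after the values were seen. The log2 ratios of Apoa1, Apoa2, Apoc1, Apoe and the bright Apoh probe set all lay in the range of the 100 brightest. Without the members, the central 95% of these ran from −0.19 to 0.16. Apoa1 probe set 1419232_a_at, at 12546, had the highest signal of the control array. Whether signals this high still follow the amount of transcript was not tested, so small ratios at the bright end are uncertain.

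Among the proteins of HDL, Apoa1 encodes the main structural protein, which activates the cholesterol-esterifying enzyme LCAT. Its 4 probe sets had signals of 11986, 9804, 9626 and 9293 on the diosgenin array, against 12546, 10407, 10548 and 9872 on the control array. All 4 were lower, with log2 ratios of −0.066 to −0.13, but after quantile normalization of the arrays 2 of them turned to 0.017 and 0.015. The 4 probe sets end in _a_at or _x_at, suffixes of probe sets that can read several transcripts, and they share a target, so they are no replicates. Apoa2, the second structural protein of HDL, had a signal of 9207 on the diosgenin array and 10444 on the control array, a log2 ratio of −0.18. In the brightest signal class 14.0% of probe sets were at least as low. Both differences were thus smaller than the SD of 0.28 within genes.

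Apom, which encodes the lipocalin that carries sphingosine 1-phosphate on HDL, was the HDL gene on the other side. Probe set 1419095_a_at had 2647 on the diosgenin array against 2080 on the control array, and 1419096_at had 2335 (diosgenin) against 1847 (control). The ratios of both, 1.27-fold and 1.26-fold higher, were almost equal, with log2 ratios of 0.35 and 0.34. Their gap of 0.0096 was reached or exceeded by 97.3% of the 2509 genes with 2 probe sets. Both probe sets read the same pools, so they are no replicates, and their closeness says nothing of the spread between mice. Of 3873 probe sets in the brightest class, 163 were at least as high as the first, or 4.21%, and both lay inside the central 95% of that class, which ran from −0.47 to 0.45. Over all alternative settings Apom stayed between 0.33 and 0.35.

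Apoa4 encodes an apolipoprotein of chylomicrons and HDL that in mice is made in both intestine and liver. The 2 probe sets were lower, at 1168 (diosgenin) against 1450 (control) for 1436504_x_at and 835 (diosgenin) against 1175 (control) for 1417761_at. These are 1.24-fold and 1.41-fold lower, with log2 ratios of −0.31 and −0.49. The second lay just outside the central 95% of the brightest class, where 89 of 3873 probe sets, or 2.30%, were at least as low. It was short of 1.5-fold. Because Apoa4 and Apob are also intestinal genes, enterocyte markers were read: 1 of 6 measured passed the filter, Fabp2, at 743 on the diosgenin array and 834 on the control array. The summed signal of the 6 was 790 on the diosgenin array and 868 on the control array, and Slc15a1, Vil1 and Lct were under the floor on both arrays. Their part in the Apoa4 and Apob values was not tested.

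**Figure D2:**
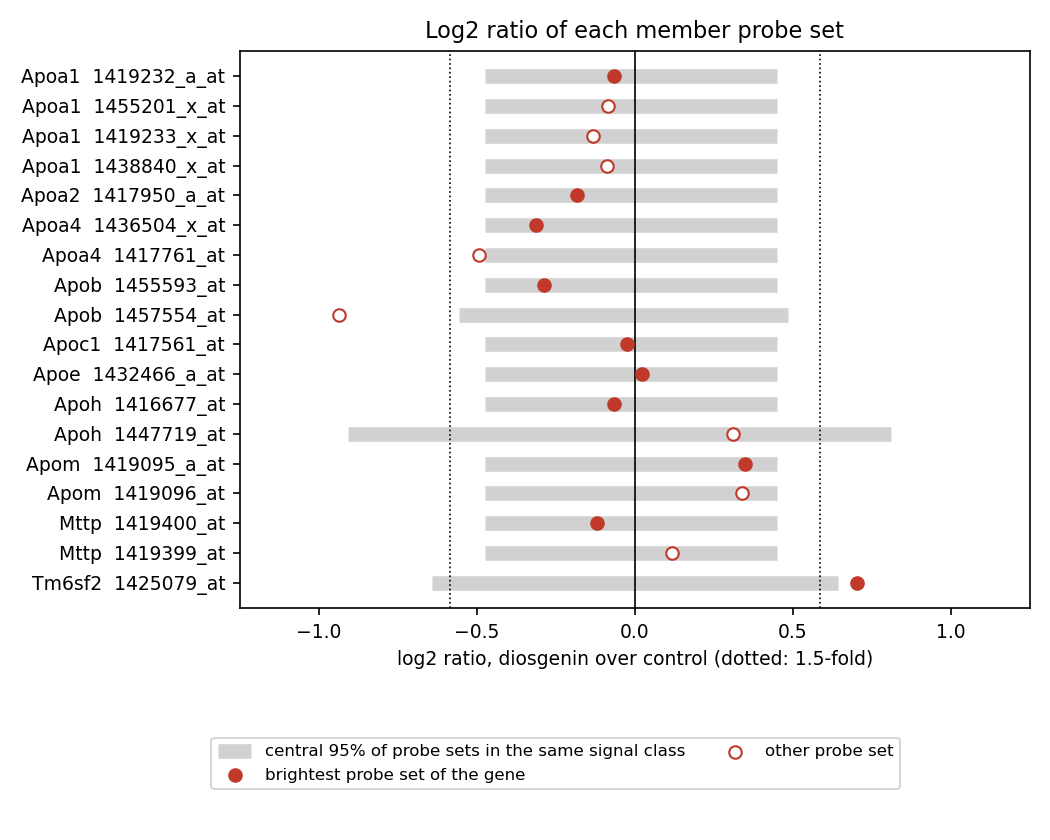
Log2 ratio of diosgenin over control for each member probe set (filled, the brightest probe set of the gene; open, another), over grey bars for the central 95% of probe sets in the same signal class. Of the 18, 3 lie outside their bar: Apob 1457554_at at −0.94, Apoa4 1417761_at at −0.49 and Tm6sf2 at 0.70.

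Apob encodes the large structural protein of VLDL, with 1 copy per particle. Its brighter probe set, 1455593_at, had 3671 on the diosgenin array and 4480 on the control array, 1.22-fold lower, with a log2 ratio of −0.29. The dimmer one, 1457554_at, had 113 (diosgenin) against 216 (control), which is 1.91-fold lower, with a log2 ratio of −0.94. The probe sets thus had the same direction but differed by 0.65 on the log2 scale, a gap that 7.89% of the genes with 2 probe sets reached. In the third signal class from the dim end 24 of 3877 probe sets, or 0.619%, were at least as low as the dimmer one, while 6.89% of the brightest class were at least as low as the brighter one. With the median of both probe sets as the value of the gene, Apob was at −0.61, past 1.5-fold. Which part of the transcript each probe set reads is not given in the sources used here.

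Mttp and Tm6sf2 act with apolipoprotein B in the ER. Mttp encodes the large subunit of the transfer protein that loads triglyceride onto it, and its probe sets gave opposite directions. Probe set 1419400_at had 1786 on the diosgenin array and 1939 on the control array, a log2 ratio of −0.12, and 1419399_at had 1210 (diosgenin) against 1114 (control), a log2 ratio of 0.12. The median of both was −0.00015. Tm6sf2 encodes an ER membrane protein needed to fill VLDL with lipid, and its single probe set, 1425079_at, had 149 on the diosgenin array and 91.3 on the control array. This was 1.63-fold higher, with a log2 ratio of 0.70. In its signal class, the second from the dim end, 84 of 4532 probe sets, or 1.85%, were at least as high, and the central 95% reached from −0.64 to 0.64. With a pseudocount of 16 added in place of the floor the log2 ratio was 0.62. No second probe set was there to set beside it.

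Among the exchangeable apolipoproteins, Apoe, the ligand of receptors that clear remnant particles, had 9390 on the diosgenin array and 9239 on the control array. Apoc1, which inhibits lipoprotein lipase and binding to receptors, had 6687 on the diosgenin array and 6797 on the control array. These log2 ratios of 0.023 and −0.024 were the smallest of the set by the brightest probe set. Apoh encodes beta-2-glycoprotein I, a plasma protein that binds anionic phospholipid. Its probe set 1416677_at had 7993 (diosgenin) against 8371 (control), a log2 ratio of −0.067 that became 0.0099 after quantile normalization. The dim probe set 1447719_at had 71.1 (diosgenin) against 57.3 (control) and a log2 ratio of 0.31, well inside the central 95% of the dimmest class, −0.91 to 0.81. Kupffer cell markers are given because macrophages also make Apoe: 8 of 8 passed the filter, with summed signals of 2242 on the diosgenin array and 2052 on the control array and 0 under the floor on either, and their part in the Apoe value was not tested. Markers of liver endothelium (6 of 6 above the filter) summed to 1047 on the diosgenin array and 1428 on the control array, and those of stellate cells (6 of 6) to 1955 on the diosgenin array and 1690 on the control array. By gene, 6 Kupffer cell markers were higher and 2 lower, 1 endothelial marker was higher and 5 lower, and 6 stellate markers were higher and 0 lower. The largest gap among the endothelial markers was that of Clec4g, at 464 (diosgenin) against 745 (control). Biliary markers (1 of 5) summed to 61.8 on the diosgenin array and 112 on the control array, and pancreatic acinar markers (2 of 4) to 1218 on the diosgenin array and 1280 on the control array. Most of the acinar sum was Cela1, at 1150 (diosgenin) against 1212 (control). Cela3b, the other acinar marker above the filter, was higher, at 44.2 (diosgenin) against 38.2 (control). Krt7 and Cftr of the biliary list and Cpa1 of the acinar list were under the floor on both arrays, and the part of these cell types in the member values was not tested.

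**Figure D3:**
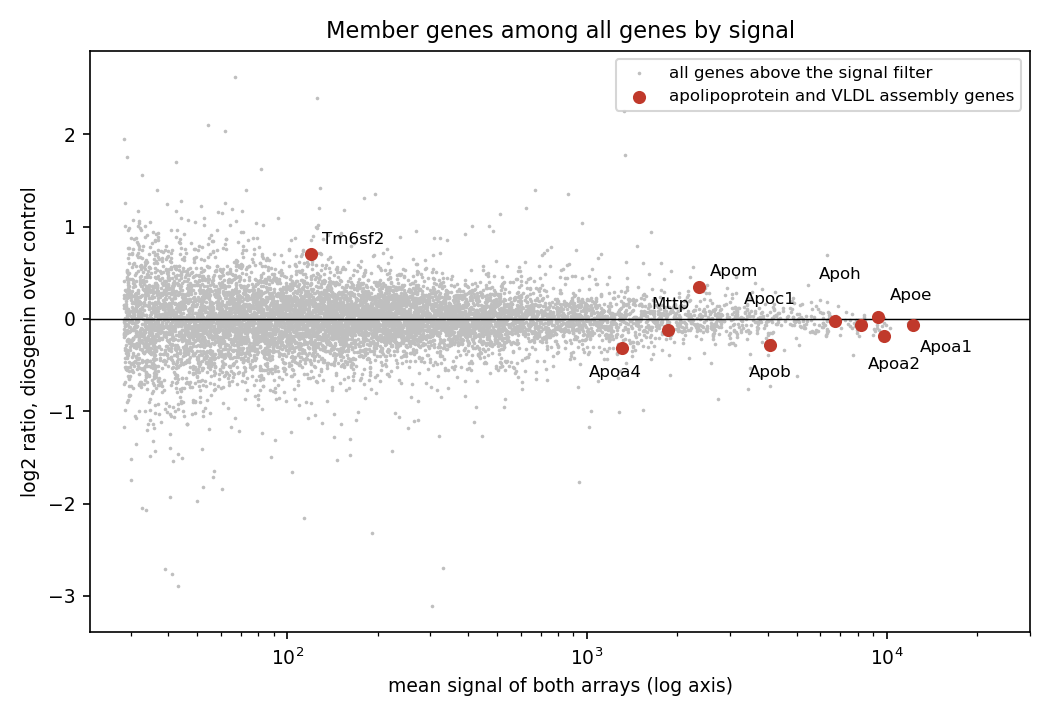
Log2 ratio of diosgenin over control against the mean signal of both arrays (log axis), with 1 point for each of 9732 genes (grey) and the 10 member genes named (red). Tm6sf2 stands apart from the other members by its low mean signal and its ratio of 0.70, and Apoe, Apoc1, Apoh, Apoa1 and Apoa2 lie close to 0 at the bright end.

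The stretches before the start sites of Apob, Apom and Apoa4 are shown because their probe sets both gave the same direction, with the largest sizes, lower for Apob and Apoa4 and higher for Apom. Each window runs from 250 bases before to 50 bases after the annotated start, on the strand of the gene, in the RefSeq tables of GRCm38.p6. Windows were available for 8 of the 10 members, and not for Apoc1 and Tm6sf2. The Apob window is chr12:7977427-7977726 on the plus strand, that of Apom chr17:35131752-35132051 on the minus strand and that of Apoa4 chr9:46240594-46240893 on the plus strand. Capitals mark matches, on either strand, to TATAAA (the TATA box), AGGTCA (the half-site of many nuclear receptors), its variant GGGTCA, and CAAAGG, which occurs in direct repeats bound by HNF4A.
Apob: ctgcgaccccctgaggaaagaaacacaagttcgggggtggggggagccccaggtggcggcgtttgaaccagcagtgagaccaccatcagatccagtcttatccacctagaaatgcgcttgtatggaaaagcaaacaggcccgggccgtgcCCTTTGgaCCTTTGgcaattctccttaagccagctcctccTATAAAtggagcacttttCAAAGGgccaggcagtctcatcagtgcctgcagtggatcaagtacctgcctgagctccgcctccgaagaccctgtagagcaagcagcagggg
Apom: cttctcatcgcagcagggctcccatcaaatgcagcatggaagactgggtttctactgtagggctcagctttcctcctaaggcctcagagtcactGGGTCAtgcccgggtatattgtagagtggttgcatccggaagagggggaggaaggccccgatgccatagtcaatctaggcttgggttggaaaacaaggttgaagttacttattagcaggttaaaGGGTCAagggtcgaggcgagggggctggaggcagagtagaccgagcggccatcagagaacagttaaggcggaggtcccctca
Apoa4: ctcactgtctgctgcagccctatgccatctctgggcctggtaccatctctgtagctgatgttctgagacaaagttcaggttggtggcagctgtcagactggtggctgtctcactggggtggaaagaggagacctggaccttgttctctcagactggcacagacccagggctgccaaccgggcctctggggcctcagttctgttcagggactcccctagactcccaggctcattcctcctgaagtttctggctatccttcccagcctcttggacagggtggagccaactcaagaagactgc
The Apob window held TATAAA at position −60 from the start, CAAAGG at −42, and CAAAGG on the opposite strand at −100 and −92. The Apom window held GGGTCA at −156 and −32, and the Apoa4 window held none of the 4. No 2 matches in these windows overlap. Of 32851 windows of the same length, 13.6% held TATAAA, 16.3% AGGTCA, 13.7% GGGTCA and 20.3% CAAAGG on either strand. GGGTCA and CAAAGG were chosen after the windows had been read, and a match is a description of letters, not a bound site.

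Other genes of the pathway were followed in 7 lists, each read by the brightest probe set, with the count at least 1.5-fold apart beside 6.44% over all genes. Of the other apolipoproteins 13 had a probe set and 11 passed the filter. In this list 0 genes were at least 1.5-fold apart, 5 were higher and 6 lower, and the median was −0.031, or 0.0066 without _x_at, _s_at and _a_at probe sets. The named genes included the serum amyloid A proteins Saa1, Saa4 and Saa2, which travel on HDL, at −0.35, −0.26 and −0.22. The other was Apoa5, which promotes lipolysis by lipoprotein lipase, at 0.18. The Saa2 probe set ends in _x_at, so other Saa transcripts may add to it, and its value is uncertain.

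Of the genes that supply lipid or assist assembly in the ER, 26 of 30 with a probe set passed the filter, with 15 higher, 11 lower, 1 at least 1.5-fold in each direction and a median of 0.020. The carboxylesterase Ces1g had 922 on the diosgenin array and 551 on the control array, a log2 ratio of 0.74. The triglyceride lipase Pnpla2 was at 0.38. Ces1d, a carboxylesterase that mobilises triglyceride for VLDL and was named after its values were seen, was at 0.14 by its brightest probe set, with 2893 on the diosgenin array and 2617 on the control array. Its _a_at and _x_at probe sets were at 0.82 and 3.23, the second with 2526 on the diosgenin array and 268 on the control array. Such probe sets can read other Ces1 transcripts, so Ces1d is uncertain. The ER chaperone Hspa5 had 3946 (diosgenin) against 6052 (control) and a log2 ratio of −0.62. This ratio was under 1.5-fold in size after quantile normalization. The other 2 probe sets of Hspa5 were also lower but far apart. The _s_at probe set was at −0.97, with 2366 (diosgenin) against 4634 (control). The _x_at probe set was at −0.056, with 286 (diosgenin) against 297 (control). The related chaperone Hsp90b1 was at −0.33. P4hb, the protein disulfide isomerase that forms the small subunit of the Mttp complex and was named after its value was seen, had 5377 (diosgenin) against 5948 (control) and a log2 ratio of −0.15.

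The list of export from ER to Golgi had the lowest median of the 7, at −0.17, with 14 of 21 genes lower, 7 higher and 1 at least 1.5-fold lower. That gene was Preb, the exchange factor that activates the COPII coat GTPase, at −0.64, but under 1.5-fold by the median of its other 2 probe sets, −0.42. The cargo receptor partner Mia2 was at −0.47 and the COPII coat subunits Sec23b and Sec24d were at −0.47 and −0.45. Sar1b, the COPII GTPase tied to chylomicron export in humans and named after its value was seen, had 3465 on the diosgenin array and 3282 on the control array, a log2 ratio of 0.079.

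For apolipoprotein mRNA editing, 3 of 6 genes were higher and 3 lower. The median was 0.055, or −0.012 by the median over a gene's probe sets, the mean was −0.059, and 1 gene was at least 1.5-fold lower. Apobec1, the deaminase that edits the Apob message, was at 0.20, and its RNA-binding cofactor A1cf at −0.29. Syncrip was at 0.25, but its other 4 probe sets had a median of 0.040. The RNA-binding protein Celf2, the gene past 1.5-fold, was at −0.62, but under 1.5-fold with the pseudocount of 16. Receptors and their regulators had 6 of 7 genes above the filter, 3 higher and 3 lower, a median of 0.0079, a mean of −0.037 and 0 at least 1.5-fold apart. The HDL receptor Scarb1 was at −0.42, the endocytic receptor Lrp1 at 0.18, the lipolysis-stimulated receptor Lsr at 0.12 and the heparan sulfate proteoglycan Sdc1 at −0.11. The other 3 probe sets of Sdc1 had a median of −0.0088. In lipoprotein remodelling 12 of 12 passed the filter, 6 higher and 6 lower, with 1 at least 1.5-fold higher. The median was −0.065, but 0.0021 without _x_at, _s_at and _a_at probe sets and also when the signal filter was raised to the 75th percentile. The gene past 1.5-fold was the lipase Lpl, at 0.69, and the lipase inhibitor Angptl4 was at 0.45. Angptl8, which also regulates lipoprotein lipase, was at −0.45, and the phospholipid transfer protein Pltp at −0.36, with 0.098 by its other probe set.

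Of the transcription regulators 26 of 27 passed the filter, with 16 higher, 10 lower and a median of 0.023. The 3 genes past 1.5-fold were all higher, namely the coactivator Ppargc1a, at 70.9 on the diosgenin array and 38.7 on the control array (log2 ratio 0.88, and 0.54 by its other probe set), the nuclear receptor and clock repressor Nr1d1, at 160 (diosgenin) against 98.3 (control), and the forkhead factor Foxa1, at 271 (diosgenin) against 170 (control). Ppargc1a lies in the dimmest signal class, where 14.3% of genes were at least 1.5-fold apart. Nr1d1 lies in the second class from the dim end, with 6.25%, and Foxa1 in the third, with 2.92%. Upward alone, 2.84% of all genes passed. The C/EBP factor Cebpb was at 0.46. Hnf4a, the nuclear receptor that drives many apolipoprotein genes and was named after its value was seen, had 2311 (diosgenin) against 2247 (control), a log2 ratio of 0.040. Its other 3 probe sets had larger log2 ratios, at 0.34, 0.14 and 0.20. Among 108 genes of the 7 lists, the 3 nearest to Tm6sf2 were Nr1d1, Apobec1 and Srebf2, at distances of 0.11, 0.53 and 0.59. Distance was taken over the 2 arrays in log2 of the mean signal and log2 ratio. The log2 ratios of these 3 were 0.70, 0.20 and 0.22, against 0.70 for Tm6sf2.

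**Figure D4:**
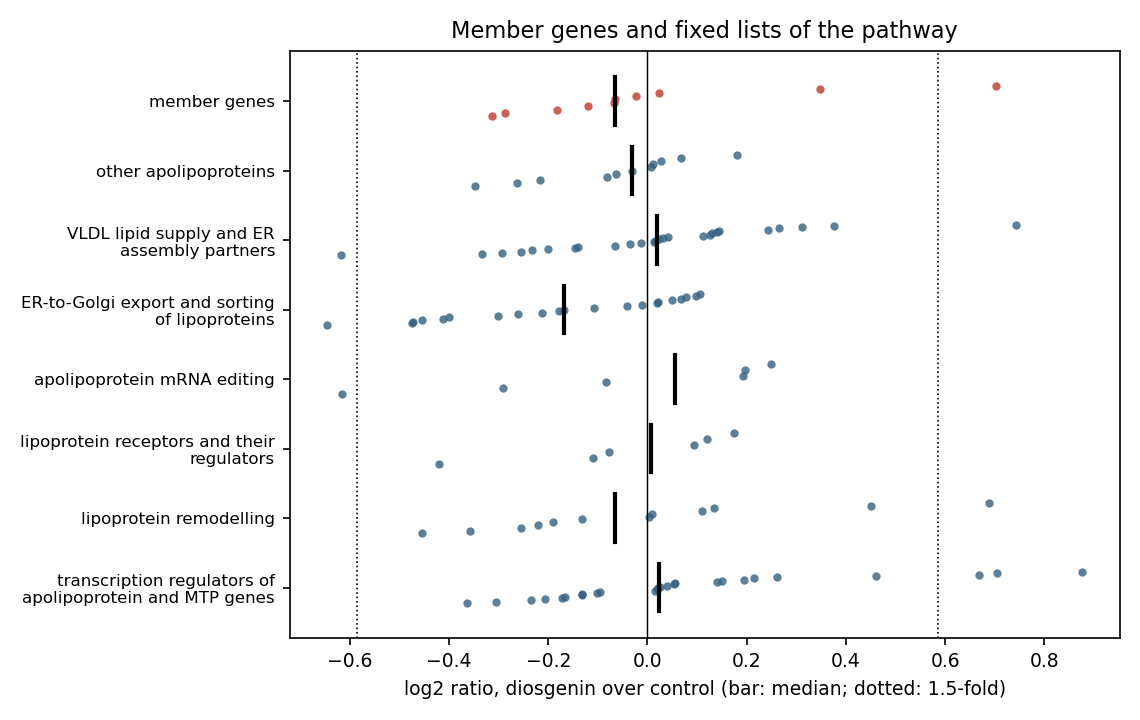
Log2 ratio of diosgenin over control for the 10 member genes (red) and for the genes of the 7 pathway lists (blue) that passed the signal filter, with the median of each as a bar and 1.5-fold as dotted lines. The ER-to-Golgi export list has its median at −0.17 and the member genes theirs at −0.066.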

How the data were processed

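Per the labels' protocols, total liver RNA pooled from 3 mice per diet was labelled with biotin and hybridised to 1 Affymetrix array per diet. The deposited unit is array intensity, linear, with 1 signal per probe set. The submitters' processing notes name GCOS (Affymetrix software), with no version. How probes were summarised and to which target arrays were scaled is not stated. Symbols came from the platform's annotation table: 34958 had 1 symbol, 932 several and 9211 none, and 34754 matched the RefSeq table of GRCm38.p6, used for names and promoter windows.

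Signals under the 40th percentile of both arrays (10.7) were set to it before log2. A gene was represented by its brightest probe set and kept from a mean signal at the 60th percentile (28.4). Values are log2 ratios of diosgenin over control, and 1.5-fold is a descriptive threshold. With 1 array per diet there are no p-values, errors or intervals, and this number of arrays limits the precision. Up to 4 genes per list with the largest absolute log2 ratio and both signals above the floor were named, together with every member. The members and lists were chosen with earlier results of these data known. Other floors, filters, scalings and probe set rules were tried. The procedure was tested on simulated data. Python 3.11.15, numpy 2.4.6 and pandas 2.3.3 were used.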

Additional observations from a re-analysis of the deposited data

How the results depend on the processing

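No paired analysis was possible because each diet had 1 array. For the same reason no replicate could be left out, and depth in reads does not apply to arrays. A value was taken as moved where it shifted by more than 0.28, the standard deviation between probe sets of a gene. Of 90 values of member probe sets under 5 alternatives (floors at the 20th and 60th percentile, median centring, quantile normalization, a pseudocount of 16) 0 moved. Both floors left every member value unchanged, and median centring shifted all alike, as Apoa1 1419232_a_at from −0.066 to −0.062. Only quantile normalization and the pseudocount thus tested the probe set values. A change of sign can stay under 0.28. Apoa1 1438840_x_at and 1455201_x_at and Apoh 1416677_at changed sign with quantile normalization and count as not moved. Of 87 values of member genes 1 moved, Apob at −0.61 with the median of its probe sets. This gives 1 member at least 1.5-fold lower in place of 0. The other filters changed no member gene value. The median of the member genes ran from −0.067 to −0.012, and Tm6sf2 from 0.62 to 0.71. Without _x_at, _s_at and _a_at probe sets Apoa1, Apoa2 and Apoe have no value. In the lists, counts at 1.5-fold changed as follows. Export from ER to Golgi had 0 lower with the median of probe sets and 0 without the _x_at, _s_at and _a_at probe sets. Lipid supply and assembly had 0 lower with quantile normalization and 0 without those probe sets, 2 lower with no signal filter, and 2 higher with the median of probe sets. mRNA editing had 0 lower with the pseudocount and 0 without those probe sets. With no signal filter, receptors had 1 higher, and other apolipoproteins 1 higher and 1 lower. A filter raised to the 75th percentile left the transcription regulators 2 higher in place of 3. Medians near 0 changed sign in 3 lists: mRNA editing to −0.012 with the median of probe sets, other apolipoproteins to 0.0066 without the _x_at, _s_at and _a_at probe sets, and lipoprotein remodelling to 0.0021 without them or with the higher filter. Over all genes, 276 higher and 351 lower became 157 and 191 with the pseudocount, 752 and 865 with no filter, and 105 and 136 when the filter was raised to the 75th percentile.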

Other observations

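Several members lie in 2 apolipoprotein gene clusters, and the neighbours within a cluster did not share a direction. In RefSeq gene order on chromosome 9, Apoa1 is followed by Apoc3, Apoa4 and Apoa5. Apoc3, an inhibitor of lipoprotein lipase, had 7308 on the diosgenin array and 7729 on the control array, a log2 ratio of −0.081. Apoa5 had 5925 (diosgenin) against 5227 (control) and a log2 ratio of 0.18, the opposite sign to that of Apoa4, at −0.31. On chromosome 7, the cluster of Apoc2, Apoc4, Apoc1 and Apoe was nearly equal on both arrays. Apoc2, the activator of lipoprotein lipase, had 1775 (diosgenin) against 1743 (control), and Apoc4 had 4423 (diosgenin) against 4387 (control). The 4 log2 ratios in this cluster ran from −0.024 to 0.026. These values have no replicate, and those of neighbours are reported as a description.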
